A study of Drosophila melanogaster with 2 samples.

Results

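The 200 most detected long noncoding RNAs of the eye-brain complex of the *Drosophila* larva were described across 6 classes of cells. They were chosen by their UMI totals alone, as the 200 long noncoding RNA features with most UMIs (unique molecular identifiers, each marking 1 captured RNA molecule) once *roX1*, *roX2* and *cherub* were set aside, out of 1209 such features among 15902 in all. How many UMIs a member has is therefore a description of the choice and not a finding. Single cells came from brains with attached eye discs of larvae grown at 25 °C for 120 hours, and the labels name 1 control library (*mirr*>OreR) and 1 library of *mirr*>ND-42 RNAi (stock BL28894). The labels give both the Gal4 driver at *mirr*, which acts in a part of the eye disc, though the methods call the control Oregon-R alone, and the RNAi targets a subunit of respiratory complex I. The tables deposited for these genotypes were identical byte for byte, so 1 set of 33552 cells was described as 1 library of unknown genotype, no genotype was compared, and no test between samples could be made.

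Long noncoding RNAs are transcripts without a long open reading frame. Some act in the nucleus as scaffolds for proteins, some are hosts for microRNAs or piRNAs, and for others it is the act of transcription near a regulatory region that matters for the neighbouring gene. Many are known for being restricted to few cell types, in the fly nervous system in particular, and most have no known function. Names that begin with CR and a number are annotation numbers of noncoding genes, given before anything is known of a role. No sequences are printed for the members because no genome or sequence table was used here.

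The members held 9986931 UMIs, which was 4.10% of all UMIs and 99.7% of those of the ranked long noncoding RNAs. A cell held UMIs of 13 members at the median. The counts were very unequal. *CR34335* alone made up 50.8% of the members' UMIs, the first 4 made up 88.1% and the first 10 made up 95.5%. The member in the middle of the ranking had 532.5 UMIs. At the limit, the last 5 inside were *CR44078* and *CR45732* with 195 UMIs each, *CR44157* with 187, *CR44764* with 186 and *CR45037* with 185. The first 5 outside were *CR33987* and *CR44392* with 184 each, *CR45808* with 183, and *CR43751* and *CR43943* with 181 each. The limit thus lies in a continuous run of counts.

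**Figure D1:**
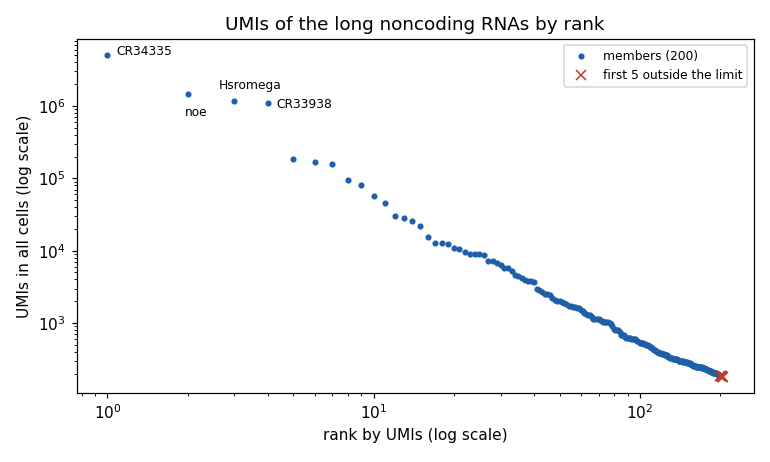
UMIs in 33552 cells (vertical axis, log scale) of each long noncoding RNA against its rank (horizontal axis, log scale), with the 200 members as points and the first 5 features outside the limit as crosses. *CR34335* lies at 5068464 UMIs, *CR33938*, the fourth, at 1100295, and the limit falls between 185 and 184 UMIs with no step.

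Cells were put in a class when they met the marker gate of that class and of no other. There were 712 neuroblasts (UMIs of *wor* and *mira*), 6572 newborn neurons (*Hey* without *nSyb*), 5374 neurons (*nSyb* and *brp*), 379 glia (*repo*), 541 antenna cells (*Dll* without *elav*) and 2558 eye cells (*eya* without *sim*). A further 14603 cells met no gate, 2813 met several, and both were left out of the class levels. Of check markers not used in the gate of their own class, 4 of 5 were highest in neuroblasts, 3 of 5 in newborn neurons, 5 of 6 in neurons, 5 of 7 in glia, 2 of 6 in antenna cells and 6 of 8 in eye cells. *elav*, counted for both newborn neurons and neurons, is also used in the antenna gate. The antenna name thus rests on *ss* and *al* beside its gate gene. Of its other check markers, *danr* and *dan* were highest in eye cells, at 0.401 and 0.283 against 0.286 and 0.158 in antenna cells. *Lim1* was highest in neurons, at 1.83 against 0.715, and *Sox15* in glia, at 0.00601 against 0.00466. Median depth ran from 3747.5 UMIs per cell in newborn neurons to 12505 in neuroblasts. A level is the pooled UMIs of a member per 10000 UMIs of the class, not divided by length. Intervals are exact 95% intervals for counting error only, and they cover neither the spread between animals nor the choice of the highest class from the same counts.

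In sum the members took a like share of the RNA in all 6 classes. Their summed level was 460 UMIs per 10000 in neurons, 445 in neuroblasts, 388 in eye cells, 384 in newborn neurons, 373 in glia and 359 in antenna cells. The highest level was 1.28 times the lowest (1.27 to 1.29). When 2 UMIs of each gate gene were asked for, neuroblasts stood above neurons, at 471 against 440. What made up the sum differed more. Without *CR34335*, the level was 318 in neurons, 187 in neuroblasts, 170 in eye cells, 161 in newborn neurons, 120 in glia and 116 in antenna cells. Without the first 10 members, it was 25.5 in neurons and lay between 14.1 and 17.9 in the other classes.

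**Figure D2:**
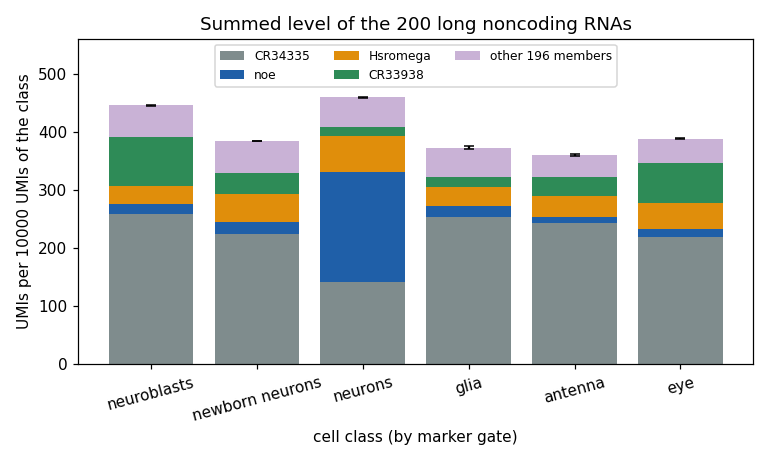
Summed level of the 200 members in UMIs per 10000 UMIs (bars, from 0) in each of the 6 classes, split into the first 4 members and the other 196, with 95% counting intervals of the sum. Neurons stand at 460 and antenna cells at 359, and *noe* makes up 189 of the neuronal level while *CR34335* makes up 141.

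*CR34335* was the most detected member, with UMIs in 33543 of the 33552 cells. Its level was 258 in neuroblasts, 253 in glia, 244 in antenna cells, 223 in newborn neurons, 218 in eye cells and 141 in neurons. The lowest class was neurons, while neuroblasts and glia differed by 1.02 times (1.01 to 1.03) and changed order when cells were thinned to a common depth. It is a single exon of 361 bases at X:3545750-3546110, inside an intron of *DIP-alpha* and on the same strand. *DIP-alpha*, a cell surface protein of the immunoglobulin superfamily, had levels of 0.0571 to 0.170 and was highest in neurons.

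The next member, *noe*, had the opposite pattern. Its level was 189 in neurons, 21.2 in newborn neurons, 19.6 in glia, 18.4 in neuroblasts, 15.3 in eye cells and 9.33 in antenna cells. Neurons were thus 8.91 times the next class (8.84 to 8.98), on 666787 neuronal UMIs. At a common depth of 3000 UMIs a cell, 97.3% of neurons and 55.6% of antenna cells held a UMI (98.8% and 85.0% unthinned). Whether *noe* UMIs outside neurons are RNA free in the suspension was not tested. *noe* lies at 3L:17400272-17401348 in an intron of *blot*, on the same strand, and *blot* was lowest in neurons, at 0.0641.

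*Hsromega* and the *alphagamma-element* are RNAs of heat shock loci. *Hsromega* transcripts gather in nuclear speckles that hold RNA-binding proteins, and the *alphagamma-element* lies at the cluster of *Hsp70* genes. The level of *Hsromega* was 61.7 in neurons, 48.7 in newborn neurons, 43.8 in eye cells, 36.2 in antenna cells, 32.8 in glia and 30.7 in neuroblasts. That of the *alphagamma-element* ran from 5.29 in glia to 8.90 in newborn neurons, a span of 1.68 times. Cells had been held at 37 °C for 10 minutes in trypsin. The 6 *Hsp70* genes summed to between 8.20 in glia and 13.4 in eye cells, while *Hsp26* ran from 93.3 in glia to 155 in newborn neurons. *Hsp83* ran from 44.2 in glia to 77.3 in newborn neurons. *Hsp68* ran from 4.69 in neuroblasts to 12.05 in neurons, the lowest and highest classes of *Hsromega*. The part of the trypsin step in the levels of *Hsromega* and the *alphagamma-element* was not tested.

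*CR33938* was highest in neuroblasts and eye cells. Its level was 84.5 in neuroblasts, 69.9 in eye cells, 34.9 in newborn neurons, 33.0 in antenna cells, 17.5 in glia and 15.8 in neurons. The order of neuroblasts and eye cells turned without the deepest cells. *CR33938* lies on 3R within 1804 bases of *Ccp84Ab*, a larval cuticle protein gene. *CR30009* reached 17.0 in glia, 10.9 in neuroblasts and 9.30 in newborn neurons but 2.17 in antenna cells. *CR45388* reached 6.93 in neuroblasts and 4.13 in newborn neurons, against 0.431 in antenna cells. In *CR42862*, which shares exon sequence with *CG33229* on the same strand so that its counts are uncertain, the level was highest in neurons at 6.24. The remaining 2 of the first 10 were *CR46006*, at 5.19 in newborn neurons and 4.69 in neurons, and *CR40469*, at 4.52 to 8.52 in all classes. Among members with at least 1000 UMIs in the classes, the 5 most even were the *alphagamma-element*, *CR34335*, *CR32218*, *CR43266* and *CR46268*.

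A member was counted as raised in a class when its level there was at least 2 times that of the next class. Of the 200 members, 187 had the 100 UMIs in the 6 classes set for this count and 13 did not. Of the 187, 46 were raised in 1 class, or 24.6%, against 20.1% of the 9029 features counted in the same way. The median ratio of the highest to the next class was 1.31 for members and 1.27 for all features. Among features with at least 1000 UMIs in the classes, 11 of 50 members were raised, against 14.9% of 6167 features. The ratio of each raised member was also taken under 6 other settings, with levels as means over cells, with cells thinned to 3000 UMIs, with cells of several classes allowed, with 2 UMIs of each gate gene, without the 5% deepest cells, and without the highest cell of each class. It stayed at 2 or more in all 6 for 31 of the 46 members and dropped under 2 in at least 1 for the other 15. Over all raised features this was not counted, so these 31 have no background beside them.

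By class, neurons had 26 raised members, or 13.9%, against a background of 10.5%. Neuroblasts had 7, or 3.74%, against 2.92%. Glia had 5, or 2.67%, against 4.09%, and the eye had 5, or 2.67%, against 1.2%. Newborn neurons had 2, or 1.07%, against 0.277%. The antenna had 1, or 0.535%, against 1.19%. With so few members in each class other than neurons, these shares are descriptions. At 3000 UMIs a cell 0 of 92 counted members were raised in the eye, and 1 of 164 was without the 5% deepest cells. Fewer members reached 100 UMIs in both settings. The share of all features raised in the eye was not taken under them.

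**Figure D3:**
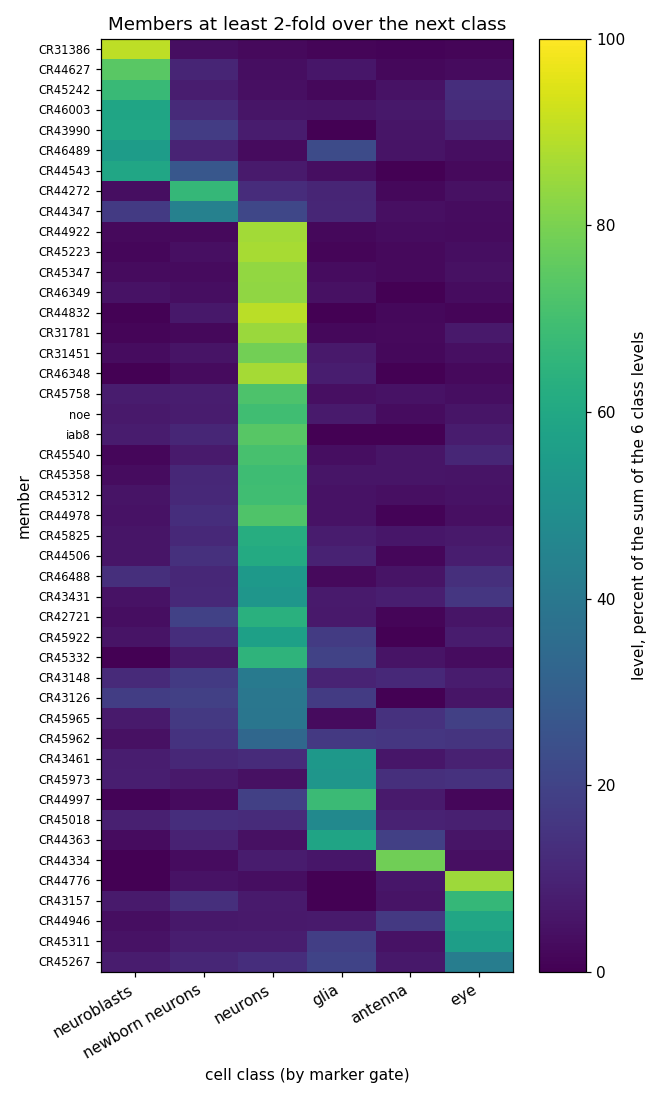
Level of each of the 46 raised members in the 6 classes, as a percent of the sum of its class levels (colour from 0 to 100), with members in rows grouped by highest class and ordered by ratio. Of the rows, 26 are brightest in neurons, 7 in neuroblasts, 5 in glia, 5 in eye cells, 2 in newborn neurons and 1 in antenna cells.

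Some calls rested on 1 cell. In *CR44832*, 969 of the 1057 neuronal UMIs (91.7%) came from a single neuron of 9269 UMIs, and the ratio of 13.9 became 1.51 when the highest cell of each class was left out. In *CR45973*, 14 of the 15 glial UMIs (93.3%) came from 1 glial cell, and glia stood at 0.258 times the highest other class without it. In the other 44 raised members the highest cell held at most 15.2% of the UMIs of the class, and they were raised in the same class without it. With the highest cell of each class left out for every feature, 47 members were raised, against 20.2% of all features.

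**Figure D4:**
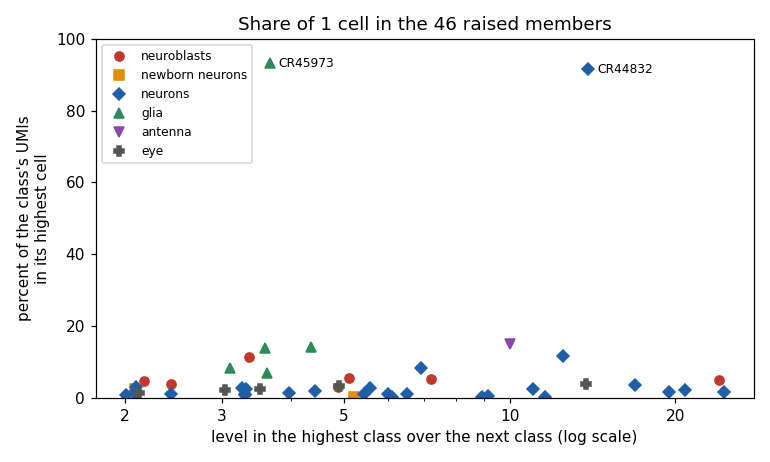
Percent of a member's UMIs in its highest class that came from the cell with most of them (vertical axis) against the ratio of the highest to the next class (horizontal axis, log scale), for the 46 raised members, with symbols by class. *CR45973* at 93.3% and *CR44832* at 91.7% stand apart from the other 44, which lie at 15.2% or less.

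Among neuroblasts, the dividing stem cells of the brain, *CR31386* had the highest ratio. Its level was 1.84 in neuroblasts, 0.0768 in newborn neurons, 0.0508 in neurons, 0.0271 in glia, 0.0265 in eye cells and 0.0233 in antenna cells. Neuroblasts thus stood 24.0 times above the next class (21.1 to 27.4), on 2317 UMIs. The size of this ratio depended on the setting, at 7.79 without the 5% deepest cells, 6.08 with cells of several classes allowed, 10.6 in thinned cells and 12.3 as a mean over cells. At 3000 UMIs a cell 11.2% of neuroblasts held a UMI of it, and 16.15% unthinned, so the level rested on a minority of the class. *CR31386* spans 3R:11269415-11305608 on the minus strand, on the same strand as *cherub* at 3R:11247631-11256123, a long noncoding RNA known from neural stem cell tumours in the fly. *cherub* itself was highest in newborn neurons, at 299 against 171 in neuroblasts.

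The 77 neuroblasts with at least 2 UMIs of *CR31386* differed from the other 635 in more than this RNA. The member *CR45242* was at 1.92 in them against 0.106 in the others, or 18.2 times (14.7 to 22.6), and was found in 70.1% of them against 8.66%. *CG9993* was 50.1 times higher (38.2 to 66.9), and *Pex7*, which encodes an import receptor of peroxisomes, was 13.1 times higher (11.8 to 14.5). Also listed were *CG33494* (43.7 times), *CG13023* (22.1), *Taf12L* (17.95), *CG13305* (16.35) and *CG14036* (11). These cells were also deeper, with a median of 22381 UMIs against 12020. At 3000 UMIs in every cell, the 76 neuroblasts with a UMI of *CR31386* still had 13.8 times the *CR45242* level of the other 604 (7.62 to 25.7) and 9.0 times that of *Pex7* (7.05 to 11.5). Such genes were listed by the size of their ratio among those found in at least 25% of the cells, after the counts had been seen. The germ line markers checked, *vas* and *bam*, also had their highest sum in neuroblasts, at 0.0597 against 0.0151 to 0.0275 in the other classes. Their part in the neuroblast level of *CR31386* was not tested.

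*CR45242* was itself raised in neuroblasts, at 0.505 against 0.0988 in eye cells, 0.0603 in newborn neurons and at most 0.0372 elsewhere, a ratio of 5.11 (4.47 to 5.87) that was 2.60 without the 5% deepest cells and 10.1 with 2 UMIs of each gate gene. It opens a stretch of 3L, from base 10269482 to base 10412377, that holds 7 members. *CR46003* was at 4.01 in neuroblasts and 0.823 in newborn neurons, a ratio of 4.87 (4.65 to 5.1), or 2.84 with cells of several classes. *CR43990* and *CR44543*, at the far end, had ratios of 3.35 and 2.17 in neuroblasts, with lowest values of 2.06 and 1.75 over the other settings, while *CR45245* was highest there without passing the limit, at 1.63. *CR46004* and *CR46006* lie between them and were highest in newborn neurons, at 1.10 and 5.19, with neurons close at 1.01 and 4.69. The stretch thus held members of both patterns side by side. Elsewhere, *CR44627* on 2R was at 0.0764 in neuroblasts and 0.0106 in newborn neurons, a ratio of 7.18 (4.85 to 10.9) that was 3.10 with cells of several classes. *CR46489* had a ratio of 2.43 over glia, and 1.19 as a mean over cells.

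In newborn neurons, *CR44272* was at 3.35, against 0.642 in neurons, 0.511 in glia, 0.228 in eye cells, 0.189 in neuroblasts and 0.107 in antenna cells. The ratio was 5.21 (4.98 to 5.46) on 11330 UMIs, and 3.34 with cells of several classes. At 3000 UMIs a cell, 43.7% of newborn neurons and 3.74% of antenna cells held it. *CR44272* lies at 2R:7992196-7992567, 2871 bases from *Hey*, the Notch target that defined the class, and on the same strand. It also lies 334 bases from *ACC*, which encodes acetyl-CoA carboxylase and was raised in the same class, at 0.714 against 0.260 in neurons. The only other member of the class was *CR44347*, with a ratio of 2.08 (1.42 to 3.09) that was 1.39 in thinned cells.

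In neurons, the members with the highest ratios were mostly found in few cells. *CR45223* was at 1.52 in neurons and at most 0.0733 in any other class, a ratio of 20.8 (18.3 to 23.7) on 5371 UMIs, but 5.81 with cells of several classes allowed and 12.2 as a mean over cells. The level of *CR44922* was 0.114 in neurons and 0.00466 in antenna cells, where it rested on 2 UMIs, and the ratio was 24.5 (6.74 to 203), or 3.91 as a mean over cells. *CR45347* had a ratio of 19.5 (11 to 38.3) and *CR46349* one of 16.9 (6.51 to 62.8), and in thinned cells these were 5.72 and 4.11. *CR31451*, in contrast, was found widely. Its level was 6.96 in neurons, 0.601 in glia, 0.461 in newborn neurons, 0.376 in eye cells, 0.280 in neuroblasts and 0.186 in antenna cells, and 78.5% of neurons held it at 3000 UMIs a cell. Its ratio of 11.6 was 6.74 with cells of several classes. *CR31781* had a ratio of 12.5 over eye cells (5.74 as a mean over cells), *CR46348* one of 11 (1.94 to 440, with 1 UMI in glia), and the neuronal members not yet described had ratios from 2.01 in *CR45962* to 9.12 in *CR45758*, of which *CR45962*, *CR45922*, *CR45965*, *CR43431*, *CR43126* and *CR45332* dropped under 2 in at least 1 setting.

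**Figure D5:**
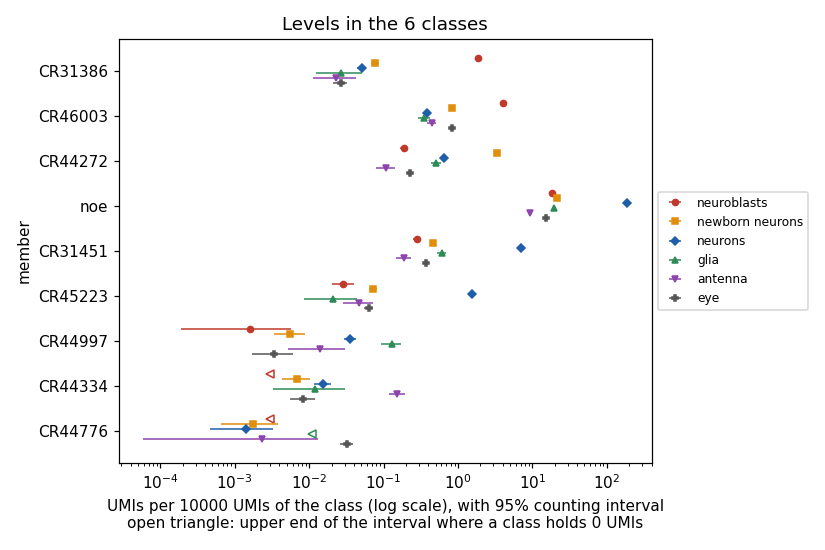
Level of 9 raised members (rows) in each class, in UMIs per 10000 UMIs on a log axis, with 95% counting intervals as bars and open triangles for the upper end where a class held 0 UMIs. *CR31386* and *CR46003* are highest in neuroblasts, *CR44272* in newborn neurons, *noe*, *CR31451* and *CR45223* in neurons, *CR44997* in glia, *CR44334* in antenna cells and *CR44776* in eye cells, and the interval of *CR44776* in antenna cells rests on 1 UMI.

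The glial members were thinly covered. *CR44997* was at 0.129 in glia and 0.0357 in neurons, a ratio of 3.62 (2.5 to 5.15) on 43 glial UMIs. *CR43461* had 14 glial UMIs and a ratio of 4.36 (2.16 to 8.35), and *CR44363* had 24 and a ratio of 3.10 (1.43 to 7.26). With cells of several classes these were 2.05 and 2.08. *CR45018*, at 0.174 in glia and at most 0.0484 elsewhere, had a ratio of 3.60 (2.62 to 4.89), but it shares exon sequence with *IP3K2* on the same strand. That kinase gene was also highest in glia, with a ratio of 3.09, and reads of the pair could be split between them. The ratio of *CR45018* was 1.93 with cells of several classes allowed. The 8 hemocyte markers checked also had their highest sum in glia, at 2.77 against 0.246 to 1.93 in the other classes, with *He*, *Col4a1* and *vkg* highest in glia, *Hml* at 0.382 there and *NimC1* at 0. Their part in the glial level of *CR45018* was not tested.

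Eye and antenna members had few UMIs as well. *CR44776* was at 0.0320 in eye cells and 0.00233 in antenna cells, where it had 1 UMI, a ratio of 13.8 (2.41 to 548), or 2.57 with cells of several classes. Its nearest coding gene was *IFT52*, 3281 bases away, and it lies 4878 bases from *eya*, the retinal determination gene that defined the class, on the other strand. *CR45267* was at 0.0446 in eye cells and 0.0211 in glia, a ratio of 2.12 that reached down to 1.0 in its interval and was 1.24 with cells of several classes. Its nearest coding gene was *Optix*, another regulator of early eye development, 4688 bases away, and *Optix* was at 2.01 in eye cells and 2.09 in glia. *CR43157*, *CR44946* and *CR45311* had ratios of 4.90, 3.53 and 3.04 in the eye, with lowest values of 1.68, 2.01 and 1.34 over the other settings. In the antenna, *CR44334* was at 0.154, against 0.0153 in neurons, 0.0120 in glia and less elsewhere, a ratio of 10.0 (6.89 to 14.6) on 66 UMIs. It lies 2709 bases from *rn*, a zinc finger gene of appendage development, which was at 0.705 in antenna cells, 0.703 in eye cells and 0.799 in neurons.

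The named RNAs with a known role were mostly at low levels. The *let7C* transcript, the host of the *let-7*, *mir-100* and *mir-125* microRNAs that time late development, was at 0.119 in neurons and 0.0692 in glia. *flam*, the piRNA locus that restrains transposons in the follicle cells of the ovary, was at 0.0302 in eye cells and 0.0241 in glia, with intervals that overlap. *dntRL* was at 0.0349 in antenna cells and 0.0305 in eye cells. *iab8*, the bithorax transcript that carries a microRNA acting on Hox genes in the posterior nerve cord, was at 0.0306 in neurons and 0.00443 in newborn neurons, a ratio of 6.9 (4.01 to 12.8) that was 3.21 as a mean over cells, with 0 UMIs in glia and in antenna cells. Its annotated span overlaps the coding gene *MSAmiP* on the same strand, which had no value of its own in the data. Whether UMIs of *iab8* come from *MSAmiP* was not tested.

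Members were then compared between finer gates and the other cells of the same class, with the same limit of 2 times. The highest ratio that did not rest on 1 cell was that of *iab8* in the 648 neurons with a UMI of *Ubx*, *abd-A* or *Abd-B*, the posterior Hox genes, where it had 105 UMIs against 3 in the other 4726 neurons. The ratio was 178 (59.2 to 876), and 4.17% against 0.0635% of cells held it. This gate uses both coding neighbours of *iab8*, with *abd-A* 1067 bases and *Abd-B* 3981 bases away. In the same neurons *CR42651* was 3.29 times higher (2.22 to 4.84), *CR31781* 3.25 times (2.81 to 3.76) and *CR42721* 2.67 times (2.16 to 3.29). In all, 6 of 101 members were raised there, or 5.94%, against 2.43% of features.

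By transmitter, 5 members were raised in the 447 GABAergic neurons (*Gad1*), or 4.95%, against 1.07% of features. The highest were *iab8* at 3.15 times (1.95 to 4.95), *CR31386* at 2.95 times (2.03 to 4.21) and *CR46349* at 2.49 times (1.69 to 3.57), and of these *iab8* rested on 6 cells. In *CR31386* 22 of the 41 UMIs came from 1 cell, and the ratio was 1.43 without the highest cells. In glutamatergic neurons (*VGlut*) *CR31781* was 2.42 times higher (2.07 to 2.82) and *CR45312* 2.21 times (2.08 to 2.35), the 2 members raised there, against 0.574% of features. In cholinergic neurons (*VAChT*) 1 member was raised, *CR43855* at 2.21 times, and it fell under the limit without its highest cell, against 0.652% of features. In the 65 monoaminergic neurons (*Vmat*) 7 were raised, against 3.89%, and in 5 of them the interval reached 1 or less.

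Further gates used other transcription factors. In the 685 neurons with *acj6*, *CR44320* was 2.47 times higher (1.71 to 3.52). It was the 1 member raised of 101, or 0.99%, against 0.509% of features. In the 291 neurons with *bsh*, 3 members were raised, or 2.97%, against 1.94%, led by *CR44070* at 3.07 times (1.71 to 5.19). In the 160 neurons with *ey* and *dac*, a pair found in the mushroom body, 6 were raised, or 5.94%, against 5.09% of features. One of these was *CR44832*, at 278 times, but 2 of the 160 cells held it and 1 of them gave 969 of its 971 UMIs. *CR43626* and *CR33963*, at 2.43 times (1.71 to 3.39) and 2.37 times (1.74 to 3.17), were spread over 24 and 33 of these cells.

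Among neuroblasts, 395 held UMIs of both *Imp* and *Syp*, the RNA-binding proteins of early and late temporal windows, 311 held *Syp* without *Imp*, and none held *Imp* without *Syp*. In the 311, 6 of 44 members were raised over the other 401, or 13.6%, against 0.962% of features. *CR44024* was 3.75 times higher (3.10 to 4.57), *CR45242* 2.81 times (2.39 to 3.30) and *CR31386* 2.80 times (2.58 to 3.05), followed by *CR43264*, *CR33938* and *noe*. The 311 cells were shallower, at a median of 8090 UMIs against 18556, and the part of depth in this difference was not tested.

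In the eye, *CR45267* was 3.30 times higher (2.30 to 4.68) in the 408 cells with *Optix* and without *elav* than in the other eye cells, the 1 member raised there, against 0.194% of features. Its neighbour *Optix* was a gate gene. In the 614 eye cells with *elav* and *gl*, which marks the region of photoreceptor differentiation, *CR46488*, *CR44776* and *CR43314* were 2.59, 2.19 and 2.18 times higher, against 2.67% of features. *CR43314* was the best covered, with 1449 UMIs and 68.2% of these cells against 31.8% of the others.

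The gates that follow were taken over all cells, in a class or not, and their overlap with the classes was not counted. *CR30009* was at 27.8 in the 316 cells with *eya* and *sim*, the lamina gate, against 6.01 in all other cells, or 4.62 times (4.53 to 4.71). Of the 316 cells, 88.6% held it. In that gate 7 members were raised, against 2.2% of features. In the 30 cells with *Hml* and *NimC1*, the hemocyte gate, *CR45018* was at 1.16 against 0.0529, or 21.9 times (16.2 to 28.9), in 19 of the 30 cells, and *CR44133* was 39.2 times higher (20.5 to 68.7) on 13 UMIs. There 25 members were raised, or 12.5%, close to the 13.4% of features, and for 16 of them the interval reached 1 or less. In the 101 cells with *twi* and *Him*, the muscle precursor gate, 12 were raised, or 6%, against 4.93%, led by *CR45177* at 4.33 times (1.72 to 9.06) on 7 UMIs.

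Of the 168 members found in under 10% of cells, most had scattered single UMIs, with a median of 1.08 UMIs in a cell that held any. Several were concentrated instead. *CR43855* had 8.73 UMIs in such a cell, *CR45223* 7.5, *CR31386* 5.49, *CR31781* 4.79 and *CR45312* 4.17. The 41 newborn neurons with at least 2 UMIs of *CR43855* had *Nplp2*, a neuropeptide-like precursor gene, at 186 against 0.616 in the other 6531, or 303 times (289 to 317). By ratio, *CG15347* (466 times), *mthl6* (357) and *CG8157* (322) stood above it. *CG33460* (291), *Idgf2* (283), *CG30283* (251) and *GstD2* (219) followed. In the hemocyte gate *CR43855* was 2.88 times higher than in all other cells (2.01 to 4.01), or 1.33 times without the highest cells. What kind of cell the 41 are was not tested. These 41 cells had a median of 21357 UMIs against 3732. At 3000 UMIs in every cell, *Nplp2* was 127 times higher (117 to 137) in the 69 cells with a UMI of *CR43855*. Whether these cells are doublets was not tested.

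The 589 neurons with at least 2 UMIs of *CR45312* had about the depth of the others, at a median of 5113 against 5071 UMIs. *CG11294* was 6.34 times higher in them (5.80 to 6.94), *Lim3*, a transcription factor of motor neurons and other neuron types, 3.04 times (2.72 to 3.40), and *tup*, another such factor, 2.32 times (2.09 to 2.58). In the 293 neurons with *CR45223*, *CG14322* was 20.6 times higher (18.5 to 23.0). *CR45223* overlaps exons of *CG14322* on the opposite strand, and since the sources used here do not say whether reads were counted by strand, the pair cannot be told apart. In the 56 neurons with *CR31781*, *rhea*, which encodes talin, was 7.72 times higher (6.93 to 8.57), and *beat-Ia*, an axon guidance gene of motor neurons, 4.77 times (4.12 to 5.51).

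Positions were taken for all 200 members. They lay on X (34), 2L (32), 2R (41), 3L (46), 3R (43) and the fourth chromosome (4). Of the members, 99 lay between coding genes in none of the following places, 29 within 2000 bases downstream of one on the same strand, 18 in an intron on the same strand, 19 in an intron on the opposite strand, 20 over an exon on the same strand and 15 over an exon on the opposite strand. Some of the 99 were still close to a coding gene, such as *CR31781*, 26 bases from *CG32832*. Counts of the members over exons, in introns or within 2000 bases downstream are uncertain, since reads may come from the coding gene. On the opposite strand this depends on whether reads were counted by strand. Their longest transcript had a median of 994 bases against 654 in the other long noncoding RNAs, and 53% had 1 exon only against 64.1%.

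Where both were counted, 56 of 149 members (37.6%) had the same highest class as their nearest coding gene. No interval is given for such shares, since members are not replicates and some have the same neighbour. Among coding genes and their own nearest coding gene the share was 27.1% of 6400. For the 28 raised members with a counted neighbour, 15 shared the class, or 53.6%, against 33.5% of 1077 raised coding genes. With overlapping genes set aside, the shares were 34.6% of 130 members against 26.9% of coding genes, and 11 of 23 raised members (47.8%) against 34.5%. At 3000 UMIs a cell 26.1% of members shared the class. The share of coding genes was not taken at this depth. *CR31451* has *CG13603* as its nearest coding gene, at 148 bases, with the highest level in glia at 1.06 times that of the next class. It also lies 271 bases beyond the end of *CG31140* on the same strand, and *CG31140* was at 5.34 in neurons against 0.535 in glia, a ratio of 9.97 beside the 11.6 of *CR31451*. Whether reads of *CR31451* come from *CG31140* was not tested. *CR46349* lies 315 bases from *CG43689*, neuronal with a ratio of 13.3, and *CR46348* lies 1081 bases from *CG14459*, neuronal with a ratio of 10.3. *CR45825* lies in an intron of *bru3* on the same strand, an RNA-binding protein gene with a neuronal ratio of 6.77. *CR45922* lies in one of *Eip75B*, also on the same strand, an ecdysone-induced nuclear receptor gene with a neuronal ratio of 3.26. *CR43461* lies in an intron of *CG3168* on the opposite strand, and *CG3168* was 48.7 times higher in glia than in any other class. Reads of *CR45825* and *CR45922* may come from the genes that hold them. Those of *CR43461* may too if reads were not counted by strand. Neither was tested. Others differed from their neighbour. *CR42721*, neuronal with a ratio of 3.30, lies 1789 bases beyond *Ama*, a secreted immunoglobulin protein gene that was glial with a ratio of 11.3, and *CR43148*, neuronal with a ratio of 2.42, lies 119 bases from *Df31*, which was highest in neuroblasts.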

How the data were processed

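Cells were sequenced on 10x libraries, reads were mapped and UMIs counted by the authors with Cell Ranger on BDGP6 with annotation 91, and Seurat was used. The deposited values are natural log values, ln of 1 plus UMIs per 10000 UMIs of the cell. They were undone in Python 3.11.15 (numpy 2.4.6, scipy 1.17.1), and 100% gave whole UMIs within 0.01, 243468253 in all, 500 to 333220 per cell (median 4092). Cells in several classes were left out, and no doublet caller was run. Ratios have exact conditional binomial intervals, with a floor of 3 UMIs for a class at 0. The script was tested on simulated data. Positions are from Ensembl release 115 on the same assembly, 196 members matched by symbol and 4 by an older symbol. Named were the 10 members with most UMIs, up to 5 raised per class and 3 per finer gate by ratio, those with a name, 5 on each side of the limit, the 5 most even, and neighbours. Members and lists were chosen with earlier results of these data known. Other raised members, few-cell members, cells that hold a member, *cherub*, *DIP-alpha* and heat shock genes were added after their values were seen.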

Additional observations from a re-analysis of the deposited data

How the results depend on the processing

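No paired analysis was possible because the identical tables hold 1 set of cells with no replicate labels, though the methods speak of triplicates. The count of 46 raised members (24.6%, against 20.1% of all features) became 27 at 3000 UMIs a cell (29.3% of 92, against 17%) and 18 with at least 500 UMIs (24% against 16.4%). It became 84 at 1.5 times (44.9% against 33.1%) and 113 against all other cells of the classes (60.4% against 41.6%). Under the other 8 alternatives it lay between 38 and 53. Those counts were 20% to 28.3% of the 164 to 200 members tested, against 12.5% to 22.1% of features. The member share was the higher in each of them. The share sharing the class of the nearest coding gene was 26.1% at 3000 UMIs, with no share of coding genes taken at that depth. The ratio of the summed level in neurons to antenna cells, 1.28, was 1.25 as a mean over cells, 1.33 thinned, 1.18 with cells of several classes, 1.18 with 2 UMIs of each gate gene, 1.29 without the 5% deepest cells and 1.60 without the first 10 members. The 85 calls over finer gates (5.29% of tested pairs of member and gate, against 3.19% for all features) became 26 at 3 times (1.62% against 1.38%) and 54 without the highest cells (3.36% against 2.04%), an alternative added after seeing the data. A turn of the highest class was looked for in the raised members and those named by rule, not in the others. It turned in *CR34335* (0.943 thinned, 0.905 without the deepest cells), *CR33938* (0.813 without the deepest cells), *CR46006* (0.995 as a mean over cells) and *CR45973* (0.930 with 2 UMIs of each gate gene, 0.258 without the highest cells). With intervals that reached 1 at the start, it also turned in *dntRL* (0.721 with 2 UMIs of each gate gene), *CR43266* (0.882 as a mean over cells) and *CR46268* (0.874 thinned, 0.951 without the deepest cells). The causes were not tested. Glia and antenna cells limit the depth, with 3325367 and 4295537 UMIs. The gate for neuroblasts with *Imp* and without *Syp* held no cells and gave no value.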
